A study of Mus musculus with 6 samples.

Results

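The fibroblast growth factor (FGF) system was examined in cells grown from mouse embryonic stem cells: the genes of the FGF ligands, their receptors and binding proteins, the inhibitors that act on the pathway, and the ETS factors that it induces. Members were the protein-coding genes of the deposited table named Fgf with a number, Fgfr1 to Fgfr4, the Spry and Spred genes, and Fgfrl1, Fgfbp1, Fgfbp3, Dusp4, Dusp5, Dusp6, Il17rd, Etv4, Etv5 and Flrt3. This rule uses gene names and no measured value, though it and the gene lists below were chosen with earlier results of these data known. It found 43 genes, among 21936 protein-coding genes and 55487 genes in all. They comprised 22 ligands, 5 receptors, 2 ligand-binding proteins, 11 feedback inhibitors, 2 ETS factors and the membrane protein Flrt3.

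Bulk poly(A) RNA-seq libraries came from 3 Ts1Cje and 3 wild-type (WT) samples. Ts1Cje mice model Down syndrome and are trisomic for the distal end of chromosome 16. The Ts1Cje samples were cells from stem cells established from Ts1Cje mice, and the WT samples were cells from wild-type stem cells. Both groups had been kept with LIF and serum replacement and were then induced toward primitive macrophage progenitors, the early blood cells that give rise to microglia, for 4 days with FGF2, BMP-4, activin A and VEGF. All 6 samples therefore received FGF2 protein, and every value below is the cells' own mRNA under added ligand. Strain, sex, passage and the number of stem cell lines are not given in the labels, so genotype and cell line cannot be told apart. Samples are numbered by lot, and the labels do not say that lots were separate cultures; the p-values thus reflect differences between lots that may be technical only. Of the 43 members, 2 lie on chromosome 16 (Fgf12 and Etv5), 0 of them in its last part from 90 Mb that the extra copy covers, and 0 lie on chromosome 12, which carries a known deletion in Ts1Cje.

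FGF ligands bind receptor tyrosine kinases together with heparan sulfate chains on the cell surface, and hormone-like ligands use a klotho protein as co-receptor. The receptor passes the signal through FRS2, RAS, RAF and MEK to the kinase ERK. ERK in turn raises Etv4 and Etv5 and a set of inhibitors, the Sprouty and Spred proteins, ERK phosphatases and Il17rd, which damp the pathway. In the early mouse embryo, FGF signalling through Fgfr1 is needed for mesoderm to leave the primitive streak, and Fgf5 marks the epiblast.

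Library totals ran from 16577065 to 19010856 counts in Ts1Cje and from 18459721 to 18587516 in WT. In a principal component analysis the groups separated along the first axis (79.1% of variance). WT replicate 1 stood apart from the other WT libraries on the next component, at 39.4 against −9.83 and −23.7. Several results below whose call, size or overlap rests on this library are also given without it. For genes whose sign changed, the closing section gives ranges over single left-out libraries. Most listed macrophage and myeloid genes were absent or nearly so, and 7 of 12 had too few counts to be tested. Of these, Ptprc, Cx3cr1 and Fcgr1 had 0 counts in all 6 libraries. Adgre1, Itgam, Spi1 and Lyz2 had at most 6 counts in any library. The 5 tested genes included Csf1r and Cd68. Csf1r, the receptor of the macrophage growth factor CSF1, was at 9.05 to 11.3 TPM in Ts1Cje and 7.30 to 9.11 TPM in WT. Cd68, a lysosomal protein of macrophages, was at 17.1 to 25.5 TPM in Ts1Cje and 9.71 to 19.1 TPM in WT.

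Of the 43 members, 33 had enough counts to be tested. The test was edgeR's quasi-likelihood test on counts, and p-values were adjusted by the Benjamini-Hochberg method over all 17315 tested genes; a gene was called at an adjusted p below 0.05. The members split in both directions: 7 rose in Ts1Cje, 10 fell and 16 did not pass. The 17 calls were 51.5% of tested members, where 43.8% of all tested genes and 49.0% of tested protein-coding genes were called. Over all tested genes, 23.3% rose and 20.5% fell. The median log2 fold change of Ts1Cje over WT was 0.03 for the members and −0.01 for all tested genes. The median absolute log2 fold change was 0.64 for the members and 0.35 for all tested genes. Among the calls, 11 of the 33 tested members changed at least 2-fold, 6 upward and 5 downward, against 18.1% of all tested genes (11.7% upward and 6.41% downward). Fgf14, among the members that rose, had enough counts for the test in Ts1Cje alone, so its call adds no support to these counts. The Ts1Cje and WT libraries did not overlap in 18 of the 33 tested members, against 55.2% of all tested genes. Calls were therefore about as frequent among members as among protein-coding genes at large.

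**Figure D1:**
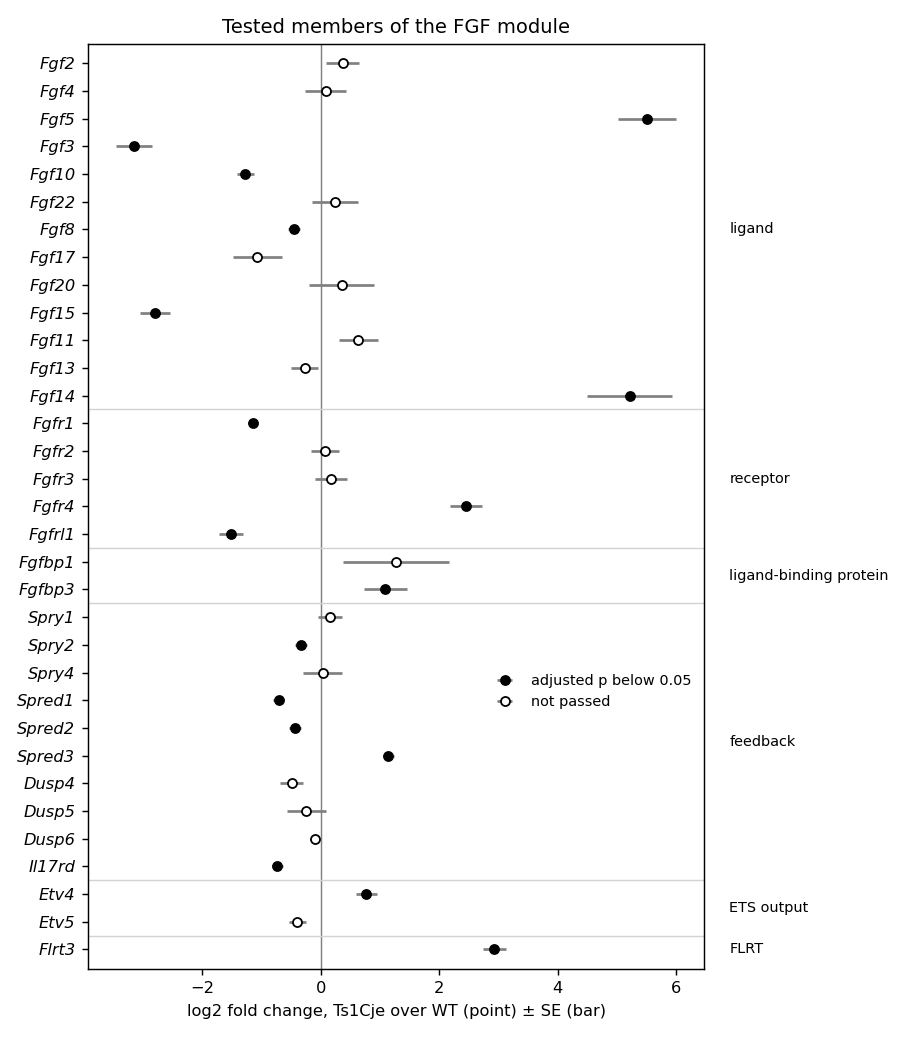
Log2 fold change of Ts1Cje over WT (edgeR, bars show the SE) for the 33 tested members, grouped by class, with called and not called members marked. Fgf5 at 5.51 and Fgf14 at 5.22 lie farthest to the right and Fgf3 at −3.15 farthest to the left, while the feedback inhibitors lie closer to 0.

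The ligands showed an exchange of abundant transcripts. Fgf5 was high in Ts1Cje and low in WT, Fgf3, Fgf10 and Fgf15 were low in Ts1Cje and higher in WT, and Fgf8 was abundant in both. Of 22 ligand genes, 13 were tested: Fgf5 and Fgf14 rose, Fgf3, Fgf10, Fgf15 and Fgf8 fell, and 7 did not pass. The calls were 46.2% of tested ligands, beside 49.0% of tested protein-coding genes. Fgf14 had enough counts for the test in Ts1Cje alone, so its call adds no support to this count. Levels are given below in TPM, the deposited unit, in which counts are scaled by gene length and by library so that genes can be set side by side. In bulk RNA, fewer cells that express a gene and less RNA per cell cannot be told apart.

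The promoters of Fgf5 and Fgf3 are shown because these ligands had the largest rise and the largest fall among ligands with a promoter entry. Each runs from 250 bases before to 50 after the start site, 5′ to 3′, from RefSeq on GRCm38.p6. Capitals mark matches on either strand to 4 motifs: the ETS site CCGGAAG, the OTX site TAATCC, the TATA box TATAAA and the GC box GGGCGG.
Fgf5 promoter, chr5:98253934-98254233, plus strand: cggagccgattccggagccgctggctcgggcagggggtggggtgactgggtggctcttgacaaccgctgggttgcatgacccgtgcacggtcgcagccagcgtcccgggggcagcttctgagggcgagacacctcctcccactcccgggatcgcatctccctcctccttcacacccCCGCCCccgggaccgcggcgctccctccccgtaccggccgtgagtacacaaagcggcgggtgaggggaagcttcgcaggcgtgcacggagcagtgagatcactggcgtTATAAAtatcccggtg
Fgf3 promoter, chr7:144838362-144838661, plus strand: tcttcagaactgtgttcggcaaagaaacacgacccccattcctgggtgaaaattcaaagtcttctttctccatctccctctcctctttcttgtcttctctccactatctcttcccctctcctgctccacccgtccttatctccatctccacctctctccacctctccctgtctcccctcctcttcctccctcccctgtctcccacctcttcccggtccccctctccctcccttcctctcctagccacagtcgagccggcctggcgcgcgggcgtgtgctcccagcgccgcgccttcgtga
The Fgf5 window held 1 GC box, on the minus strand, and 1 TATA box that begins at position 35 after the start site. The Fgf3 window held none of the 4 motifs. Among all 32851 mouse promoters of the same length, a GC box occurred in 35.7%, a TATA box in 13.6%, an ETS site in 8.86% and an OTX site in 7.06%. Of the 43 members, 32 had a promoter entry, with 40 promoters in all. Of these 40, 25 held a GC box, 5 a TATA box, 3 an OTX site and 1 an ETS site. A match is a description of letters, not of a bound site.

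Fgf5 (ENSMUSG00000029337, chromosome 5, 98254184 to 98277030, plus strand), a secreted ligand of the FGF4 subfamily, stood at 239.5, 229 and 239 TPM in Ts1Cje, against 10.2, 2.51 and 2.89 TPM in WT. The groups were far apart, the Ts1Cje libraries were close to each other, and WT replicate 1 was the highest of its group. Its mean was 236 ± 5.77 TPM in Ts1Cje and 5.19 ± 4.31 TPM in WT (SD, n = 3 each). The edgeR log2 fold change was 5.51 ± 0.49 (SE; 45.6-fold; adjusted p = 0.000661). Without WT replicate 1 the log2 fold change was 6.42 (adjusted p = 5.1e-11; range over all alternatives 1.07e-17 to 0.0124). Fgf4, a ligand of the same subfamily that stem cells use to leave pluripotency, did not pass. It measured 7.39, 3.97 and 3.81 TPM in Ts1Cje, against 6.51, 4.85 and 3.01 TPM in WT, with overlapping groups (log2 fold change 0.08 ± 0.34 SE, adjusted p = 0.863).

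Fgf3 (ENSMUSG00000031074, chromosome 7, 144838083 to 144844436, plus strand), a ligand of posterior embryonic tissue and the inner ear, showed the opposite pattern. It stood at 12.5, 21.7 and 8.51 TPM in Ts1Cje, against 132, 121 and 121 TPM in WT. No library of one group came near the other. The mean was 14.2 ± 6.78 TPM in Ts1Cje and 125 ± 6.02 TPM in WT (SD, n = 3 each), and the log2 fold change was −3.15 ± 0.31 (SE; 8.87-fold lower in Ts1Cje; adjusted p = 0.000377). Fgf10, the ligand that drives limb and lung budding, was at 17.0, 26.5 and 17.9 TPM in Ts1Cje, against 49.9, 49.7 and 47.5 TPM in WT. All 3 Ts1Cje libraries lay below all 3 WT libraries (log2 fold change −1.27 ± 0.15 SE, adjusted p = 0.00015).

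Fgf15 (ENSMUSG00000031073, chromosome 7, 144896531 to 144900953, plus strand), the mouse counterpart of the hormone-like FGF19 and an intestinal signal that lowers bile acid synthesis in the adult, stood at 7.72, 4.91 and 4.81 TPM in Ts1Cje, against 29.2, 46.7 and 44.9 TPM in WT. The groups did not overlap, and WT replicate 1 was the lowest WT library. The log2 fold change was −2.80 ± 0.26 (SE; 6.95-fold lower in Ts1Cje; adjusted p = 7.98e-05). The antisense transcripts Gm26793 and Gm39119 overlap Fgf15 and had log2 fold changes of −2.78 and −2.66. No source used here states the counting strand, so sense and antisense reads cannot be told apart.

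Fgf8 (chromosome 19, 45736798 to 45742915, minus strand), the ligand needed for cells to migrate away from the primitive streak, was the most abundant ligand by mean over the 6 libraries. It measured 195, 241 and 219 TPM in Ts1Cje, against 342, 294 and 259 TPM in WT. The groups came close to each other without overlap. The fall was small, with a log2 fold change of −0.45 ± 0.10 (SE; adjusted p = 0.00427). Fgf17, of the same subfamily, measured 4.87, 3.23 and 2.40 TPM in Ts1Cje, against 10.7, 7.84 and 3.56 TPM in WT, with 1 pair of libraries overlapping. It had a log2 fold change of −1.07 ± 0.41 and did not pass (adjusted p = 0.0608). Fgf17 was called in 5 of 15 alternatives, among them DESeq2 (adjusted p = 0.0380) and the fits without Ts1Cje replicate 1 (0.0433) or WT replicate 3 (0.0111), with a range of 0.00315 to 0.185.

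Fgf14 belongs to the intracellular FGFs, which are not secreted and bind voltage-gated sodium channels. Its TPM was 1.34, 0.979 and 1.375 in Ts1Cje, against 0.085, 0 and 0 in WT. These values rest on 32, 21 and 34 counts in Ts1Cje, against 2, 0 and 0 counts in WT. The groups did not overlap, but the gene had enough counts for the test in Ts1Cje alone, so a tested Fgf14 had to differ and its call adds no support to the count of members that rose. The ratio of summed counts, scaled by the summed TMM-adjusted library totals of each group, was 44.4. Its 95% exact interval of 11.9 to 372 covers counting error only. edgeR's log2 fold change was 5.22 ± 0.72 (SE; adjusted p = 0.000289), and 7.87 without WT replicate 1, the only WT library with a count. On log2(TPM + 1) it was 1.11 and on log2(TPM + 0.1) it was 3.42 by limma-trend. The antisense Gm28932 overlaps Fgf14 and had 19 counts in Ts1Cje and 0 in WT.

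The remaining tested ligands were low, and none passed. Fgf2, the factor that was also in the medium, stood at 1.86, 1.50 and 1.30 TPM in Ts1Cje, against 1.49, 0.874 and 1.22 TPM in WT (log2 fold change 0.37 ± 0.28 SE, adjusted p = 0.313). Its groups overlapped. Fgf20, Fgf22, Fgf11 and Fgf13 had log2 fold changes of 0.35, 0.24, 0.64 and −0.27, with adjusted p-values between 0.141 for Fgf11 and 0.656 for Fgf22. The libraries of Fgf11, an intracellular FGF, did not overlap all the same.

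Another 9 ligands were too low to be tested: Fgf1, Fgf6, Fgf7, Fgf18, Fgf9, Fgf16, Fgf21, Fgf23 and Fgf12. None of them exceeded 1.15 CPM in any library. Fgf16, a heart and ear ligand of the FGF9 subfamily, had 5, 16 and 22 counts in Ts1Cje, against 0, 0 and 0 in WT. Taking 3 counts over the group as the floor for WT, the scaled ratio of summed counts was at least 14.6. This bound leaves out the spread between the Ts1Cje libraries. Fgf21, a fasting hormone of the liver, had 3, 5 and 0 counts in Ts1Cje, against 1, 0 and 0 in WT, so its groups overlapped. The ratio of summed counts, scaled in the same way, was 8.16, with a 95% exact interval of 1.09 to 362 that covers counting error only.

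Added over the 18 secreted ligands, with the intracellular FGFs left out, the ligand message came to 494.6 to 540.8 TPM in Ts1Cje and 487.6 to 585.4 TPM in WT. The totals overlapped, while the makeup did not. Fgf5 took 42.4% to 48.4% of this total in Ts1Cje and 0.471% to 1.735% in WT. Fgf8 took 39.5% to 44.6% in Ts1Cje and 53.0% to 58.3% in WT. Fgf3 took 1.695% to 4.02% in Ts1Cje and 22.5% to 24.9% in WT. The shares of Fgf10 (3.44% to 4.90% in Ts1Cje and 8.53% to 9.73% in WT) and of Fgf15 (0.908% to 1.56% in Ts1Cje and 4.99% to 9.20% in WT) were also lower in every Ts1Cje library. Within a library, the ratio of Fgf5 to Fgf8 was 1.23, 0.949 and 1.09 in Ts1Cje, against 0.0298, 0.00853 and 0.0112 in WT. The pair was thus at about equal TPM in Ts1Cje, and Fgf8 led by far in WT.

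**Figure D2:**
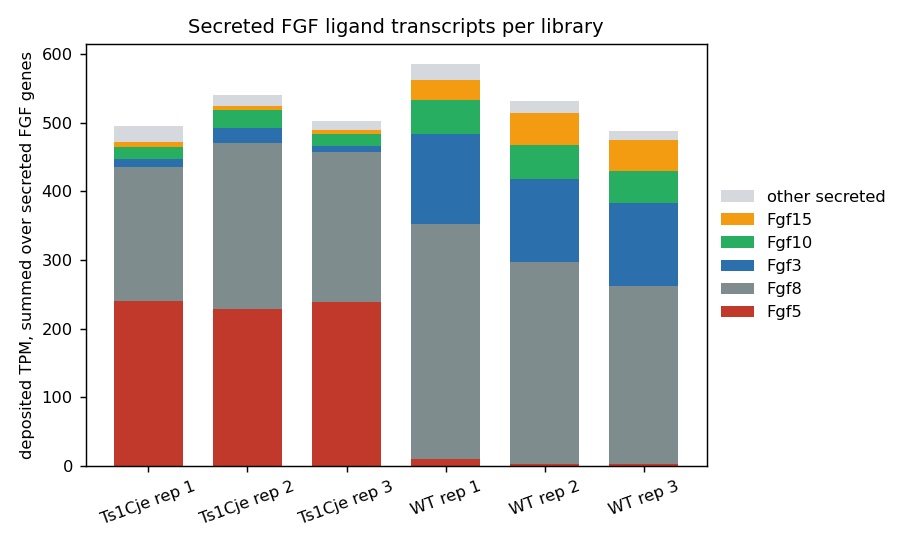
Stacked bars of the deposited TPM of the 18 secreted ligand genes in each library, with the 3 Ts1Cje libraries left of the 3 WT libraries and the 5 called secreted ligands in separate colours. The Fgf5 segment is 229 to 239.5 TPM high in Ts1Cje and 2.51 to 10.2 TPM in WT, while the Fgf3 segment is 8.51 to 21.7 TPM high in Ts1Cje and 121 to 132 TPM in WT.

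Fgf3, Fgf4 and Fgf15 are neighbours on mouse chromosome 7, of which Fgf3 and Fgf15 fell and Fgf4 did not pass. Counted from the Fgf4 start, Fgf3 starts at −9.28 kb and Fgf15 at 49.2 kb, with Fgf4 between them. Within 300 kb on either side of Fgf4 the table lists 18 genes, of which 11 were tested, 0 rose, 8 fell and 3 (Fgf4, Fadd and its antisense Faddos) did not pass; over all tested genes 23.3% rose and 20.5% fell. The genes that fell include Fgf3 and Fgf15, whose values led to this window, and the antisense Gm26793 and Gm39119, which overlap Fgf15. Gm39119 had enough counts for the test in WT alone (14, 41 and 37 counts, against 8, 1 and 5 in Ts1Cje). The falls of these genes thus add no support to the count of 8. Of the 5 tested protein-coding genes there that are not members, 4 fell. Ano1, a calcium-activated chloride channel, measured 0.553, 1.26 and 1.28 TPM in Ts1Cje, against 6.80, 18.4 and 16.7 TPM in WT (log2 fold change −3.77 ± 0.51 SE, adjusted p = 0.00159). Ccnd1, the cyclin that carries cells through G1, measured 87.8, 65.7 and 55.2 TPM in Ts1Cje, against 142, 137 and 167 TPM in WT (−1.11 ± 0.19, adjusted p = 0.00334). LTO1 fell less (−0.86 ± 0.11), and Ppfia1 least (−0.27 ± 0.07, adjusted p = 0.0155); the call of Ppfia1 was lost without WT replicate 2 or 3 (adjusted p = 0.0743 and 0.0611). These neighbours were picked for their position, after the values of Fgf3 and Fgf15 were known.

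**Figure D3:**
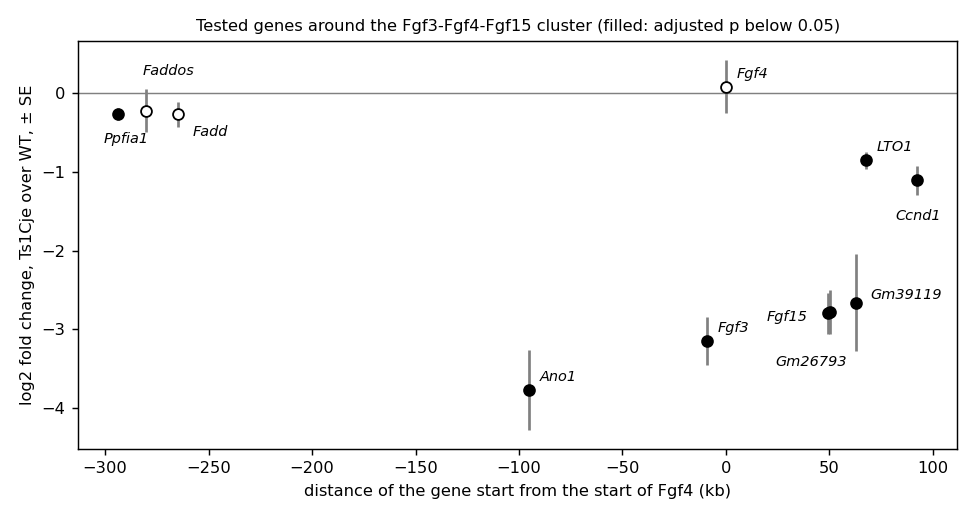
Log2 fold change of Ts1Cje over WT (edgeR, bars show the SE) of the 11 tested genes within 300 kb of Fgf4, against distance from the Fgf4 start in kb; filled points were called. Fgf3, Fgf15 and Ano1 lie between −2.80 and −3.77, and Fgf4 between Fgf3 and Fgf15 lies at 0.08.

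Fgf5 and Fgf10 lie apart from other members. Of 18 tested genes within 2 Mb of Fgf5, 6 rose and 1 fell, with a median log2 fold change of 0.07. Around Fgf10, 25 tested genes had a median of −0.33, with 3 higher and 8 lower.

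Among the receptors, the most abundant one fell and the least abundant in WT rose. Of 5 receptor genes, all tested, Fgfr4 rose, Fgfr1 and Fgfrl1 fell, and Fgfr2 and Fgfr3 did not pass. The calls were 60% of the receptor genes, beside 49.0% of tested protein-coding genes. The promoters of Fgfr4 and Fgfrl1 are shown as the receptors with the largest rise and the largest fall, marked in the same way.
Fgfr4 promoter, chr13:55152568-55152867, plus strand: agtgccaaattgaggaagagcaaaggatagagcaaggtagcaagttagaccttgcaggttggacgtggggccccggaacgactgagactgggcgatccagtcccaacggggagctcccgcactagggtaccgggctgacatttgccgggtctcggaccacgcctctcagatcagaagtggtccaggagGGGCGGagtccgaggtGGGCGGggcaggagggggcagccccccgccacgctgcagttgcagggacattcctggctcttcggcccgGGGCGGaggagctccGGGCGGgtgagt
Fgfrl1 promoter, chr5:108693979-108694278, plus strand: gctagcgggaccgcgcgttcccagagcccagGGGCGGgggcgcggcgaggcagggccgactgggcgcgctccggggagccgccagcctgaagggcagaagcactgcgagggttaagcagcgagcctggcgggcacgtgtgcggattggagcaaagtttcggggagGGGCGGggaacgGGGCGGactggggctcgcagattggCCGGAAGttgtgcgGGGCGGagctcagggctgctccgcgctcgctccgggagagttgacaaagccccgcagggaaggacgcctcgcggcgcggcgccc
Each of these windows held 4 GC boxes. The Fgfrl1 window also held an ETS site, which begins at position −48 from the start site and was the only one among the 40 promoters of members.

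Fgfr1 (ENSMUSG00000031565, chromosome 8, 25513654 to 25575718, plus strand), the main FGF receptor of the epiblast and nascent mesoderm, stood at 54.3, 64.3 and 49.9 TPM in Ts1Cje, against 128, 120 and 121 TPM in WT. The groups were well apart, with little spread in WT. The mean was 56.2 ± 7.39 TPM in Ts1Cje and 123 ± 4.27 TPM in WT (SD, n = 3 each), and the log2 fold change was −1.14 ± 0.08 (SE; adjusted p = 7.22e-06). Gm16159, an antisense gene within the bounds of Fgfr1, had 600 counts in Ts1Cje and 1301 in WT, so part of either count may belong to the other gene. Fgfr4 (ENSMUSG00000005320, chromosome 13, 55152640 to 55168759, plus strand), a receptor known from endoderm and liver, stood at 17.9, 11.1 and 14.1 TPM in Ts1Cje, against 3.76, 2.165 and 1.94 TPM in WT. Its mean was 14.4 ± 3.38 TPM in Ts1Cje and 2.62 ± 0.993 TPM in WT (SD, n = 3 each), with a fitted log2 difference of 2.45 ± 0.27 (SE; 5.48-fold; adjusted p = 9.58e-05). Every Ts1Cje library was above every WT library.

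Fgfrl1, a receptor that lacks the kinase domain and is needed in the mouse for kidney and diaphragm formation, was at 8.55, 15.2 and 13.0 TPM in Ts1Cje, against 31.0, 33.5 and 39.7 TPM in WT. The groups did not overlap (log2 fold change −1.52 ± 0.20 SE, 2.86-fold lower in Ts1Cje, adjusted p = 0.000289). Fgfr2, the receptor of epithelia and trophoblast, stood at 7.47, 8.76 and 9.37 TPM in Ts1Cje, against 5.25, 8.74 and 10.2 TPM in WT (0.07 ± 0.24, adjusted p = 0.835). Fgfr3, a receptor known from cartilage and the nervous system, stood at 16.1, 13.9 and 22.3 TPM in Ts1Cje, against 10.3, 17.4 and 18.2 TPM in WT (0.18 ± 0.27, adjusted p = 0.642). Both overlapped between groups. The deposited record of Fgfr2 spans 130162451 to 133123350 on chromosome 7 and covers many other genes, so its count may include reads of those genes or lack shared ones.

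Added over the 5 receptor genes, the message came to 104 to 113 TPM in Ts1Cje and 178 to 191 TPM in WT, without overlap. Fgfr1 took 45.9% to 56.75% of it in Ts1Cje and 63.4% to 71.7% in WT. Fgfr4 took 9.82% to 17.1% in Ts1Cje and 1.02% to 2.11% in WT. Within a library Fgfr1 exceeded Fgfr4 by 3.04, 5.78 and 3.53 times in Ts1Cje, against 34.0, 55.4 and 62.4 times in WT. The order of mean levels in Ts1Cje was Fgfr1, Fgfr3, Fgfr4, Fgfrl1 and Fgfr2; the neighbours after Fgfr1 in this order overlapped between libraries. In WT the order was Fgfr1, Fgfrl1, Fgfr3, Fgfr2 and Fgfr4, and no neighbours overlapped, although the lowest Fgfr3 value (10.3 TPM) nearly met the highest Fgfr2 value (10.2 TPM).

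Flrt3 (ENSMUSG00000051379, chromosome 2, 140650914 to 140671469, minus strand), a leucine-rich repeat membrane protein that binds FGF receptors and promotes their signalling in the frog Xenopus, rose strongly. It stood at 75.9, 73.4 and 83.4 TPM in Ts1Cje, against 14.0, 8.45 and 7.99 TPM in WT. The groups were far apart, and WT replicate 1 was again the highest WT library. Its mean was 77.6 ± 5.17 TPM in Ts1Cje and 10.1 ± 3.34 TPM in WT (SD, n = 3 each), and the log2 fold change was 2.93 ± 0.19 (SE; 7.64-fold; adjusted p = 2.27e-05). Flrt3 lies on the opposite strand within Macrod2, which had 150 counts in Ts1Cje and 99 in WT.

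The ligand-binding proteins release FGFs from the matrix, and their values were uneven between lots. Fgfbp3 stood at 8.88, 8.035 and 13.9 TPM in Ts1Cje, against 3.01, 4.03 and 7.28 TPM in WT, without overlap. Its log2 fold change of 1.09 ± 0.36 (SE; adjusted p = 0.0331) lost its call without Ts1Cje replicate 1 or 3 or WT replicate 1 or 2, with adjusted p-values of 0.0537 to 0.133. Fgfbp1 stood at 2.47, 2.33 and 6.95 TPM in Ts1Cje, against 3.93, 0.231 and 0.760 TPM in WT. WT replicate 1 alone lay within the Ts1Cje range, and the gene did not pass (1.27 ± 0.90, adjusted p = 0.303). Without that library the log2 fold change was 2.94 (adjusted p = 0.00841, the smallest over all alternatives, the largest being 0.695).

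Around the receptors, genes of FGF co-receptors and of heparan sulfate changed in both directions. Of 24 listed genes 23 were tested, and 9 rose, 8 fell and 6 did not pass (73.9% called, against 43.8% of all tested genes and 49.0% of protein-coding ones); the median log2 fold change was −0.21. The 3 with the smallest adjusted p among those that rose were Hs6st1, which adds 6-O-sulfate to heparan sulfate (1.71 ± 0.10 SE, adjusted p = 1.75e-06), the syndecan Sdc4 (1.72 ± 0.12, adjusted p = 5.55e-06) and the glypican Gpc4 (3.88 ± 0.22, adjusted p = 1.18e-05). Those that fell were led by the glypican Gpc3 (−1.36 ± 0.09, adjusted p = 5.77e-06) and the syndecans Sdc1 (−0.65 ± 0.07, adjusted p = 8.07e-05) and Sdc2 (−0.75 ± 0.11, adjusted p = 0.000415). The glypicans thus went in opposite directions. Gpc4 stood at 156, 154 and 166 TPM in Ts1Cje, against 15.3, 7.82 and 9.21 TPM in WT.

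Klb, the co-receptor with which FGFR4 and FGFR1 bind hormone-like FGFs, was singled out after its values were seen. It stood at 32.6, 19.2 and 24.4 TPM in Ts1Cje, against 3.20, 2.18 and 1.97 TPM in WT (log2 fold change 3.37 ± 0.25 SE, adjusted p = 1.52e-05). Klb and Fgfr4 were thus both higher in all 3 Ts1Cje libraries, while Fgf15, a ligand of that pair, was lower in all 3. Kl, the other klotho co-receptor, was too low to be tested.

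**Figure D4:**
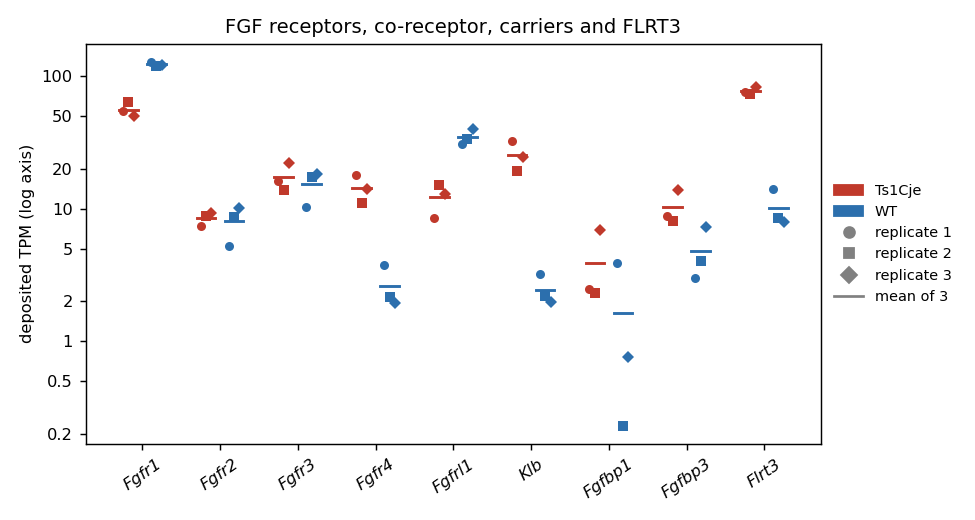
TPM of the 5 receptor genes, the co-receptor Klb, the 2 ligand-binding proteins and Flrt3 in each library on a log axis, with Ts1Cje left of WT for each gene and 1 point per library and a line at each mean. Fgfr1 and Fgfrl1 are lower in every Ts1Cje library than in any WT library, Fgfr4, Klb, Fgfbp3 and Flrt3 are higher, and Fgfr2, Fgfr3 and Fgfbp1 overlap.

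The feedback inhibitors were called about as often as protein-coding genes at large, and their changes were small. Of 11 genes 10 were tested: Spred3 rose, Spred1, Spred2, Il17rd and Spry2 fell, and Spry1, Spry4, Dusp4, Dusp5 and Dusp6 did not pass. The calls were 50% of the tested genes, beside 49.0% of tested protein-coding genes. The median log2 fold change over the 10 was −0.28, and 1 gene changed at least 2-fold. Spry3 had 0 counts in all libraries.

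Spred proteins keep RAS from activating RAF, and the 3 genes differed in direction. Spred3 stood at 27.1, 29.4 and 30.2 TPM in Ts1Cje, against 14.1, 13.1 and 11.9 TPM in WT. Every Ts1Cje library was above every WT library (log2 fold change 1.14 ± 0.09 SE, 2.21-fold, adjusted p = 9.89e-06). Spred1 stood at 47.5, 54.5 and 48.3 TPM in Ts1Cje, against 92.3, 81.7 and 71.1 TPM in WT (−0.71 ± 0.09, adjusted p = 0.000145). Spred2 stood at 71.8, 75.3 and 62.1 TPM in Ts1Cje, against 108, 90.4 and 82.6 TPM in WT (−0.43 ± 0.10, adjusted p = 0.00584). Neither Spred1 nor Spred2 overlapped between groups.

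Il17rd, also called Sef, a membrane protein that holds back FGF receptor and ERK signalling, was at 58.2, 59.5 and 47.7 TPM in Ts1Cje, against 98.6, 92.2 and 82.8 TPM in WT. All 3 Ts1Cje libraries lay below all 3 WT libraries (log2 fold change −0.73 ± 0.09 SE, adjusted p = 0.00014). Among the Sprouty genes, whose proteins block receptor tyrosine kinase signalling upstream of RAS, Spry2 was the most abundant. Spry2 stood at 103, 129 and 97.6 TPM in Ts1Cje, against 130, 139 and 140 TPM in WT. Its log2 fold change of −0.33 ± 0.10 (SE; adjusted p = 0.0255) lost its call without Ts1Cje replicate 1 or 3 or WT replicate 2 or 3, with adjusted p-values of 0.0811 to 0.0991. Spry1 (0.16 ± 0.20, adjusted p = 0.553) and Spry4 (0.03 ± 0.33, adjusted p = 0.949) overlapped between groups.

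The ERK phosphatases did not pass. Dusp6, the cytoplasmic phosphatase that is a common readout of FGF signalling, stood at 108, 101 and 98.6 TPM in Ts1Cje, against 108, 121 and 99.9 TPM in WT. The groups overlapped, with a narrow error (log2 fold change −0.10 ± 0.08 SE, adjusted p = 0.341). Dusp4, a nuclear phosphatase and the most abundant feedback gene, stood at 132, 219 and 149 TPM in Ts1Cje, against 257, 250 and 191 TPM in WT. Ts1Cje replicate 2 lay within the WT range (−0.49 ± 0.20, adjusted p = 0.0947), and without it the log2 fold change was −0.72 (adjusted p = 0.00241, the smallest over all alternatives, the largest being 0.262). Dusp5, another nuclear phosphatase, overlapped as well (−0.24 ± 0.33, adjusted p = 0.602).

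Added over the feedback genes, the message came to 604 to 767 TPM in Ts1Cje and 745 to 914 TPM in WT. These totals overlapped, with Ts1Cje replicate 2 above WT replicate 3.

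**Figure D5:**
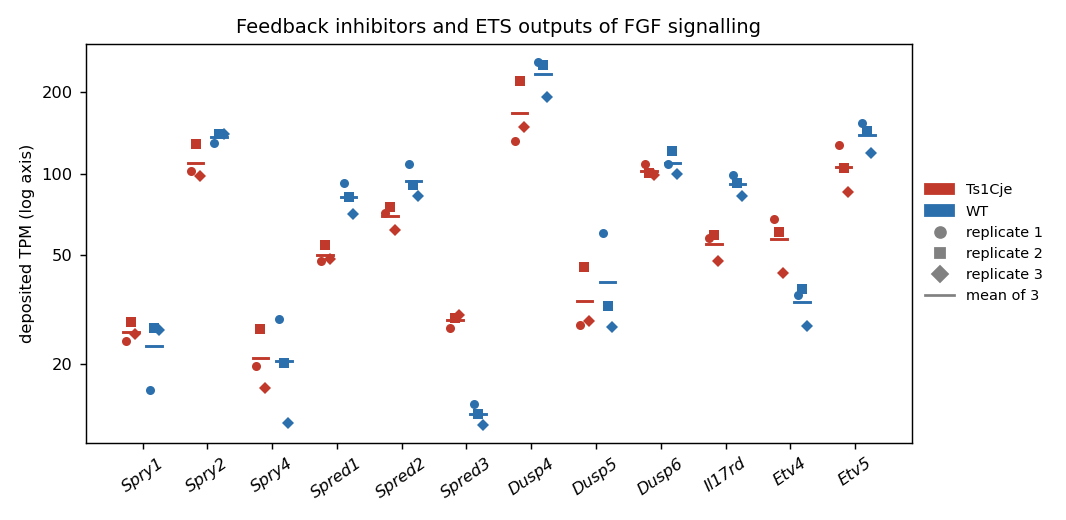
TPM of the 10 tested feedback inhibitors and of Etv4 and Etv5 in each library on a log axis, with Ts1Cje left of WT for each gene and 1 point per library and a line at each mean. Spred3 and Etv4 are higher in every Ts1Cje library than in any WT library, Spred1, Spred2 and Il17rd are lower, and Dusp6 overlaps, at 98.6 to 121 TPM.

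The ETS factors Etv4 and Etv5, which FGF signalling induces together in many embryonic tissues, gave different results. Etv4 stood at 68.0, 60.9 and 43.2 TPM in Ts1Cje, against 35.7, 37.6 and 27.5 TPM in WT. It rose 1.70-fold without overlap (log2 fold change 0.77 ± 0.18 SE, adjusted p = 0.00808). Etv5 stood at 128, 105 and 85.6 TPM in Ts1Cje, against 153, 144 and 120 TPM in WT. Its groups overlapped in 1 pair of libraries, and it did not pass (−0.39 ± 0.15, adjusted p = 0.0677). It was called in 5 of 15 alternatives, among them DESeq2 (adjusted p = 0.0161) and the fits without Ts1Cje replicate 1 (0.0059) or WT replicate 3 (0.0490), with a range of 8.14e-06 to 0.180. Within a library the ratio of Etv5 to Etv4 was 1.88, 1.72 and 1.98 in Ts1Cje, against 4.30, 3.83 and 4.35 in WT. This ratio varied little inside each group and did not overlap between groups. Etv4 by itself did not overlap and Etv5 leaned lower, so the ratio adds no separate support. With 3 against 3 libraries no further test was made of the ratio.

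Inside the cell, the components that carry the signal from receptor to ERK changed in both directions and by little. Of 26 listed genes, all tested, 6 rose, 9 fell and 11 did not pass (57.7% called, beside 49.0% of tested protein-coding genes), with a median log2 fold change of −0.04. The calls with the smallest adjusted p among those that rose were the ERK-activated kinases Rps6ka1 (0.60 ± 0.07 SE, adjusted p = 0.000105) and Rps6ka2 (0.53 ± 0.07, adjusted p = 0.000252) and the GTPase gene Hras (0.59 ± 0.08, adjusted p = 0.000255). Those that fell were led by the kinase Braf (−0.80 ± 0.06, adjusted p = 6.37e-06), the RAS inactivator Nf1 (−0.63 ± 0.07, adjusted p = 7.58e-05) and the phospholipase Plcg1 (−0.79 ± 0.09, adjusted p = 9.66e-05). Ksr1, a scaffold for RAF, MEK and ERK, had the only change of at least 2-fold (−2.61 ± 0.34, adjusted p = 0.0016) and was named after its value was seen. Map2k1, a gene of the kinase MEK, did not pass (−0.02 ± 0.07).

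Other genes known to respond to ERK changed in both directions, with more falls than rises among the calls. Their summed level was 863 to 938 TPM in Ts1Cje and 1076 to 1158 TPM in WT, without overlap. Of 21 listed, all tested, 4 rose, 7 fell and 10 did not pass (52.4% called, a share near the 49.0% of tested protein-coding genes), with a median log2 fold change of −0.39. Lif, a cytokine of the IL-6 family (1.72 ± 0.25 SE, adjusted p = 0.000376), the ephrin receptor Epha2 (2.53 ± 0.37, adjusted p = 0.00329) and the ERK phosphatase Dusp9 (0.43 ± 0.13, adjusted p = 0.0251) rose. Dusp9 lost its call without Ts1Cje replicate 2 or 3 or WT replicate 2 or 3 (adjusted p = 0.0521 to 0.0881). Myc, a driver of growth (−1.78 ± 0.18, adjusted p = 0.000207), Phlda1 (−1.52 ± 0.18, adjusted p = 0.000228) and the nuclear phosphatase Dusp2 (−2.82 ± 0.44, adjusted p = 0.00141) fell. For Dusp2 the log2 fold change was −3.60 without Ts1Cje replicate 2. The count of 4 genes that rose was 2 without WT replicate 2 or without WT replicate 3.

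Markers of several cell types differed between the same libraries. Their part in the results above was not tested. Over all tested genes 43.8% were called, 23.3% higher and 20.5% lower in Ts1Cje. A marker with enough counts for the test in a single group could only be called in that direction. Foxd3 was such a marker, with 492, 333 and 463 counts in Ts1Cje, against 16, 10 and 4 in WT. All 8 primed epiblast markers rose, with a summed level of 1253 to 1903 TPM in Ts1Cje and 215 to 443 TPM in WT. All 12 definitive and visceral endoderm markers rose, with 897 to 1002 TPM in Ts1Cje and 117 to 158 TPM in WT. Of 9 tested naive pluripotency markers, 5 rose and 1 fell (214 to 255 TPM in Ts1Cje and 95.9 to 145 TPM in WT).

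Mesoderm and vessel markers went the other way. Of 8 lateral and extraembryonic mesoderm markers, 1 rose and 7 fell, with 283 to 361 TPM in Ts1Cje and 1572 to 2248 TPM in WT. Of 10 hemogenic endothelium and vessel markers, 1 rose and 8 fell (44.9 to 108 TPM in Ts1Cje and 467 to 489 TPM in WT). Primitive streak and early mesoderm markers overlapped in sum (594 to 969 TPM in Ts1Cje and 705 to 1581 TPM in WT), with 1 higher and 3 lower of 9. That is 44.4% called, beside 43.8% of all tested genes and 49.0% of tested protein-coding genes. The highest WT sum was that of replicate 1, and the other WT libraries, at 765 and 705 TPM, lay within the Ts1Cje range.

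The macrophage and myeloid list summed to 90.4 to 97.3 TPM in Ts1Cje and 42.9 to 45.6 TPM in WT. Kit, a receptor of early blood progenitors, held much of this sum, with 52.5, 60.4 and 67.3 TPM in Ts1Cje, against 13.0, 24.8 and 26.5 TPM in WT (log2 fold change 1.47 ± 0.30 SE, adjusted p = 0.0106). Of the 12 genes 5 were tested, and Kit and Cd68 rose (40% called, beside 43.8% of all tested genes and 49.0% of tested protein-coding genes). Counts were 0 in all Ts1Cje libraries for 5 genes and in all WT libraries for 4. Cd68 overlapped between groups, and its call (0.80 ± 0.28, adjusted p = 0.0426) was lost with upper-quartile scaling and without Ts1Cje replicate 1 or 2 or WT replicate 2 or 3 (adjusted p = 0.0518 to 0.147). Csf1r did not pass (0.34 ± 0.14, adjusted p = 0.0703), but did without WT replicate 1 (0.0301, the smallest over all alternatives, the largest being 0.247).

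Of 4 tested neuroectoderm markers, 2 rose and 1 fell (52.2 to 60.3 TPM in Ts1Cje and 29.2 to 56.3 TPM in WT). Only WT replicate 1 reached the Ts1Cje range, the other WT libraries being at 29.2 and 29.3 TPM. Of 4 tested fibroblast and feeder markers, 3 fell, with 6.94 to 8.65 TPM in Ts1Cje and 34.6 to 89.7 TPM in WT, where replicate 1 was the lowest library.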

How the data were processed

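The deposited tables hold the authors' raw counts for each Ensembl gene and, separately, the authors' TPM. Per the submitters' processing notes, FastQC 0.11.7, Trimmomatic 0.38, HISAT2 2.1.0, featureCounts 1.6.3 and mm10 were named; counting strand and the handling of multi-mapped reads are stated in no source used here. Depth was 16577065 to 19010856 counts per library.

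Counts were filtered with filterByExpr (minimum count 10, minimum total count 15), scaled by TMM and tested with edgeR 4.0.16 in R 4.3.3 (robust quasi-likelihood, no covariate, Benjamini-Hochberg adjustment over all 17315 genes). SEs were derived from the log2 fold change and the F statistic. Deposited TPM gave levels between genes, with no test. The script was tested on simulated data with 200 changed genes among 17315. It recovered 56% of changes with a true log2 fold of 1 and 90% of those with 2, with 11 false calls. A gene that did not pass is thus not shown to be unchanged.

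Members and gene lists were chosen with earlier results of these data known. Values in all libraries are given for members called at 2-fold or more, each Fgfr gene and the most abundant of each class, with further members beside them; other lists name the 3 smallest adjusted p-values per direction. Deviations from the group means correlated at 0.0589 to 0.219 for libraries of the same lot number and at −0.198 to 0.0387 for others. The main fit did not pair them. Alternatives were DESeq2 1.42.0, limma 3.58.1 (voom, and limma-trend on TPM), other scalings and filters, a replicate block and leaving out each library.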

Additional observations from a re-analysis of the deposited data

How the results depend on the processing

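Of the 17 called members, 14 kept direction and call under all 15 alternatives; the exceptions were Fgfbp3 and Spry2, whose calls were lost without single libraries, and Fgf14, which a filter at mean log2 CPM 1 removed. Counts of members higher and lower were 7 and 13 with DESeq2, 8 and 12 with no filter, and 6 to 8 and 9 to 11 with 1 library left out. With the replicate block they were 7 and 12, since Etv5 (−0.41) and Fgf17 (−1.03) passed. Same-numbered libraries correlated at 0.219, 0.0589 and 0.202, and libraries of unlike number at −0.198 to 0.0387. Each same-numbered value was thus above all unlike-numbered ones. The labels do not say whether equal lot numbers pair libraries across groups. Under the block Dusp9 lost its call (adjusted p = 0.0822, range over alternatives 8.98e-08 to 0.0881). Other ERK output genes that rose numbered 2 to 4 with 1 library left out. Values that changed sign belonged to genes with no call. With 1 library left out, log2 fold changes ran from −0.49 to 0.15 for Dusp5, −0.19 to 0.82 for Fgf20, −0.0172 to 0.42 for Fgf22, −0.31 to 0.34 for Fgf4, −0.17 to 0.29 for Fgfr2, −0.0533 to 0.33 for Fgfr3, −0.0645 to 0.28 for Spry1, −0.23 to 0.35 for Spry4 and −0.0690 to 0.0313 for Map2k1; Fgf20 was also −0.0154 with limma-voom. Ano1 was −2.79 on log2(TPM + 1), which understates low genes. Upper-quartile scaling gave 3802 higher and 3874 lower among all genes, against 4032 and 3547.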
